A study of Mus musculus with 2 samples.

Results

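Receptor tyrosine kinases carry growth factor signals into the precursor cells of glia. Peaks of Prrc2a RNA immunoprecipitation sequencing (RIP-seq) over the genes of 10 such receptors were examined here: Pdgfra, Pdgfrb, Egfr, Erbb2, Erbb3, Erbb4, Fgfr1, Fgfr2, Fgfr3 and Igf1r. A peak belonged to a receptor when at least 1 bp lay within the gene's span in GENCODE M21 (mouse build mm10, the same assembly as GRCm38), and it was exonic when at least 1 bp lay over an exon of any transcript of the gene. It was shared when a replicate 1 peak overlapped a replicate 2 peak by at least 1 bp. By this rule 56 of 18129 peaks of replicate 1 and 73 of 18671 peaks of replicate 2 lay over the 10 genes.

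Both samples were immunoprecipitates of whole brain from wild-type C57BL/6J male mice of 4 weeks, and the protocol describes 3 brains. Prrc2a (proline rich coiled-coil 2A) was precipitated with an antibody, the bound RNA was trimmed with micrococcal nuclease, and the recovered fragments were depleted of rRNA and sequenced. The study treats the samples as biological replicates of 1 condition. There was no second genotype, treatment or control sample among the lists, so what can be compared is one replicate with the other and one gene with another, and no test was run. The value of each peak is its fold enrichment over the control of the peak caller, a linear ratio, and a peak says where Prrc2a-bound RNA stood above that control, not how much of the RNA the brain holds. In whole tissue, fewer cells of a type and less RNA per cell cannot be told apart, and a receptor RNA found in few cells can fall short of a peak.

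A typical receptor tyrosine kinase binds its growth factor outside the cell and pairs with a second receptor. It then phosphorylates itself and adaptor proteins inside, from which the Ras and phosphoinositide 3-kinase pathways start. Not every receptor examined here follows each of these steps. Pdgfra, the receptor of platelet-derived growth factor A, is a defining marker of oligodendrocyte precursors and drives their division. Erbb3 and Erbb4 bind neuregulins, Erbb2 has no ligand of its own and serves as their partner, and Egfr binds epidermal growth factor and its relatives. Fgfr1, Fgfr2 and Fgfr3 bind fibroblast growth factors, Igf1r binds insulin-like growth factors and promotes survival and growth of the lineage, and Pdgfrb is best known from pericytes. Prrc2a is a reader of N6-methyladenosine (m6A), a methyl mark that sits mostly in RNA with the core letters GGAC.

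The sequences that carry the exonic peaks can be read in 3 sets, all on the transcript strand and from the GRCm38 genome. The first set holds the coding bases of the first coding exon wherever a peak lay over the start codon, with the start codon in capitals. These exons encode the amino-terminal end of each receptor, with its signal peptide. In Erbb3 and Erbb4 the peaks of both replicates covered these bases, in Egfr and Igf1r a replicate 2 peak did.
Egfr, exon 1, chr11:16752483-16752570, plus strand: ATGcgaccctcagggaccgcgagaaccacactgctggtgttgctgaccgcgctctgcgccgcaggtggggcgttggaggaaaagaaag
Erbb3, exon 1, chr10:128589420-128589501, minus strand: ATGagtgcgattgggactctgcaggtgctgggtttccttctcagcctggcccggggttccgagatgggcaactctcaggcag
Erbb4, exon 1, chr1:69107675-69107756, minus strand: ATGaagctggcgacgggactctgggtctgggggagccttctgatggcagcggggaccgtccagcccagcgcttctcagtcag
Igf1r, exon 1, chr7:67952859-67952952, plus strand: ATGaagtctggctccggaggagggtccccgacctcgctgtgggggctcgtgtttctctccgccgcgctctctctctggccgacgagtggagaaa

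The GC content of these coding bases was 63.6% in Egfr, 61.0% in Erbb3, 65.9% in Erbb4 and 64.9% in Igf1r. Erbb3 and Erbb4 hold GGACT once each, within their first 82 coding bases, and Igf1r holds no GGAC there. The first coding exon of Erbb2, with 73 coding bases and a GC content of 72.6%, had no peak in either replicate.

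The second set shows coding bases that lay under the peaks of both replicates, with GGAC in capitals. Both Erbb2 stretches come from the single shared peak of that gene. Erbb4 exon 20 and Igf1r exon 16 encode parts of the tyrosine kinase domain, and Igf1r exon 6 holds GGAC most often among the shared internal exons printed here.
Erbb2, exon 11, chr11:98427090-98427150, plus strand: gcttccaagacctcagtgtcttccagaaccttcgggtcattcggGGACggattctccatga
Erbb2, exon 12, chr11:98427256-98427311, plus strand: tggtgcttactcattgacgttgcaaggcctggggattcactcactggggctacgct
Erbb4, exon 20, chr1:68198842-68199027, minus strand: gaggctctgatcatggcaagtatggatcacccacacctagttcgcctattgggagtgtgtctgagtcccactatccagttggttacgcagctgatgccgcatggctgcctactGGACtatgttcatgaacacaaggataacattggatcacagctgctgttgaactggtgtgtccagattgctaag
Igf1r, exon 6, chr7:68183344-68183558, plus strand: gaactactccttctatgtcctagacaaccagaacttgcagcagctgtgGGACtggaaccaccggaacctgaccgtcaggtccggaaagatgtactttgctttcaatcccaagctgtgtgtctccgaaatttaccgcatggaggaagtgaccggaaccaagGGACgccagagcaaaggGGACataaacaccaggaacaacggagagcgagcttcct
Igf1r, exon 16, chr7:68207251-68207480, plus strand: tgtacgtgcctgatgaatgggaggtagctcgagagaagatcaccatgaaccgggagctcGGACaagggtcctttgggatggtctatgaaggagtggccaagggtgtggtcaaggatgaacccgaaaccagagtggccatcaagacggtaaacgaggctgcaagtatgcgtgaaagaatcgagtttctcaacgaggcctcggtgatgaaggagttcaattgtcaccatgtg

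The third set shows 4 of the 6 sites of 30 bases around GGACT, in capitals, in the 3′ UTR of Igf1r under the peaks of both replicates. GGACT starts 1095, 1216, 3468 and 5381 nt after the stop codon in the sites printed, and 3610 and 5511 nt after it in the others.
Igf1r, chr7:68227484-68227513, plus strand: aaagggttccggGGACTcggcctggctgtt
Igf1r, chr7:68227605-68227634, plus strand: ggtctgttactaGGACTtcttcatgggtct
Igf1r, chr7:68229857-68229886, plus strand: agggctaaacaaGGACTgaccaaatcttga
Igf1r, chr7:68231770-68231799, plus strand: tggaccatatttGGACTtgatggtgtctga

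Prrc2a peaks over exons concentrated on 2 of the 10 receptors. Of 25 shared exonic peaks, 16 lay on Igf1r and 7 on Erbb4, and Erbb2 and Erbb3 had 1 each. Thus 4 of 10 receptors had a shared exonic peak, where 12.0% of all 21951 protein-coding genes did. The receptors are long, and exon length goes with having a peak: the median exon length was 9.95 kb for the 10 receptors, 6.87 kb for genes with a shared exonic peak and 3.50 kb for all protein-coding genes. Among the 6634 protein-coding genes with at least as much exon sequence as the shortest receptor, 27.3% had a shared exonic peak. That bound is the 5.21 kb of Erbb2, so the set is not matched to the lengths of the receptors.

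Exonic peaks numbered 33 in replicate 1 and 42 in replicate 2. Replicate 1 had them on 5 receptors (Erbb2, Erbb3, Erbb4, Fgfr2 and Igf1r), where 16.5% of all protein-coding genes had one. Replicate 2 had them on 8 receptors, where 21.0% of genes had one. Pdgfra, Pdgfrb, Egfr and Fgfr1 were reached in replicate 2 only, 4 of 10 against 7.50% of all protein-coding genes. Pdgfra counts through a peak with 26 of its 217 bp over an exon, which was intronic by RefSeq. The background shares of 16.5%, 21.0% and 7.50% were not matched for exon length. Fgfr2 was reached in replicate 1 only, and Fgfr3 in neither replicate. The share of exonic replicate 1 peaks with a partner in replicate 2 was 75.8% for the receptors and 61.3% for all protein-coding genes. Igf1r weighed most in this, with 16 of its 17 peaks shared. Erbb4 had 7 of 11 shared, Erbb3 1 of 2, Erbb2 1 of 1 and Fgfr2 0 of 2. Of the receptors' exonic replicate 2 peaks, 54.8% had a partner in replicate 1.

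**Figure D1:**
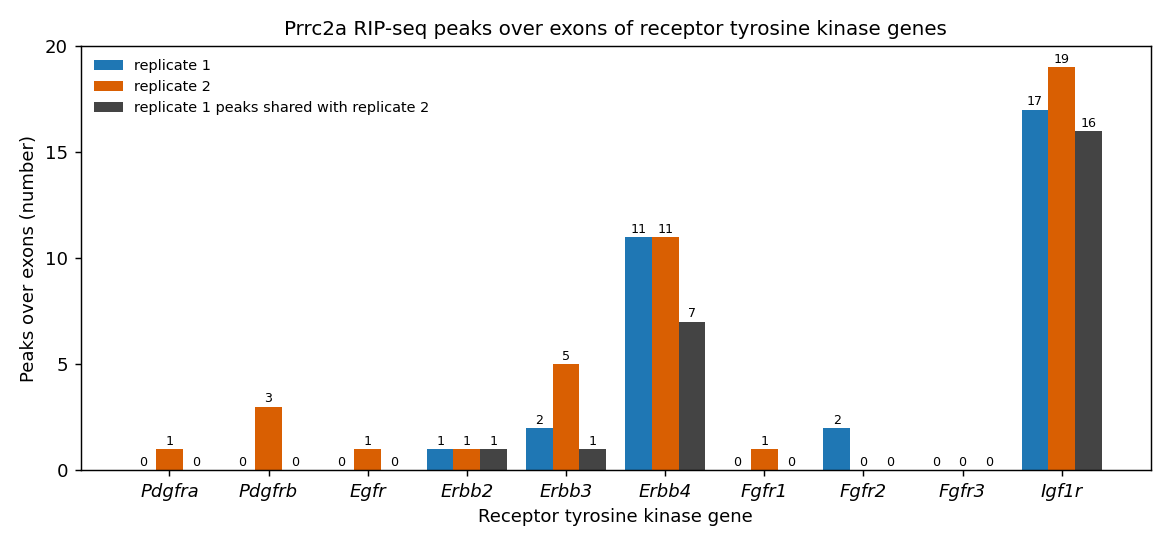
Bars give the number of peaks over exons of each receptor gene in replicate 1, in replicate 2, and among replicate 1 peaks that overlap a replicate 2 peak. Igf1r (17, 19 and 16) and Erbb4 (11, 11 and 7) hold most of them, and Fgfr3 holds none.

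Shared and unshared peaks were well apart. Among the 25 shared exonic peaks the smallest overlap was 201 bp, and the median overlap was 96.0% of the replicate 1 peak. The 27 exonic peaks without a partner, 8 of replicate 1 and 19 of replicate 2, lay at least 269 bp from the nearest peak of the other replicate. Their median fold enrichment was 2.17 in replicate 1 and 2.95 in replicate 2, next to 2.46 and 2.88 for the shared peaks. No exonic peak of the receptors touched an exon of another gene, and the lists themselves give no strand.

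Igf1r (ENSMUSG00000005533.10, chr7:67952827-68233668, plus strand) had the most exonic Prrc2a peaks of the 10 receptors. It had 17 exonic peaks in replicate 1 and 19 in replicate 2, and 16 of the former were shared, which is 0.95 per kb of exon. Genes with a shared exonic peak had a median of 2 such peaks and of 0.32 per kb. Igf1r is 1 of 18 protein-coding genes with 16 or more shared exonic peaks. On its transcript Igf1r-201, peaks of both replicates covered 57.9% of the 4110 nt coding sequence (CDS) and 49.1% of the 7267 nt 3′ UTR.

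The enrichment of each Igf1r peak was moderate. Over the 16 shared peaks, the lowest, median and highest fold enrichment was 1.62, 2.37 and 2.97 in replicate 1, and 1.79, 2.91 and 4.17 among their partners in replicate 2. The partner was higher in 13 of 16 pairs. Pairs here and below were counted per replicate 1 peak, so a replicate 2 peak could enter more than 1 pair. On Igf1r this held for the replicate 2 peaks with 3.04 and 2.88, each time as the higher value. Replicate 2 values were also higher in 71.3% of all 7317 shared exonic peaks of protein-coding genes, with a median log2 ratio of replicate 1 over replicate 2 of -0.26 (SD 0.52 over peaks) and the tilt towards replicate 2 was thus seen across genes as well.

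Along the coding exons of Igf1r, most peaks lay over a single exon, and a peak of each replicate spanned exons 9 and 10. Of its 21 exons, 11 were reached in both replicates, 5 in replicate 2 only and 5 in neither. The exons reached in both were at least 145 nt long with a median of 230 nt, and those reached in neither measured 103 to 137 nt. Those reached in replicate 2 only measured 71 to 160 nt, so length did not separate the groups fully. Exon 16 lay under a peak with a fold enrichment of 2.44 in replicate 1 (chr7:68207142-68207583) and 3.84 in replicate 2. Exon 6, printed with its 3 GGAC, had 2.06 and 1.79. In both exons the peaks also ran into the flanking introns. In both replicates together, 17 Igf1r peaks, shared or not, held exactly 1 whole coding exon, and some exons counted once per replicate. Peaks that ended inside an exon were left out. The median reach of the 17 was 122 bp before the exon and 130 bp after it. Reach was measured from the exons of Igf1r-201. At exons 8, 13 and 18 the peaks counted lay wholly within exons of any Igf1r transcript, so the reach there covered annotated exon sequence. Whether the reach comes from unspliced RNA or from how the caller extends reads was not tested.

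The last exon of Igf1r carried the stop codon and the whole 3′ UTR. The peak over the stop codon had a fold enrichment of 2.46 in replicate 1 (chr7:68226129-68226836) and 3.36 in replicate 2. Among the 16 shared replicate 1 peaks over exons the highest mean, 3.19, belonged to the next peak, 648 to 1790 nt after the stop codon, with 2.22 in replicate 1 (chr7:68227049-68228191) and 4.17 in replicate 2. This region holds the GGACT sites at 1095 and 1216 nt. Peaks then followed along the 3′ UTR to the last shared one, 6523 to 6902 nt after the stop codon, with 1.62 and 2.33 (chr7:68232924-68233303). A peak of replicate 1 without a partner, chr7:68228394-68228657 with 1.68, was the single unshared one of that replicate on Igf1r.

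The start of Igf1r depends on the annotation. A replicate 2 peak at chr7:67951935-67953073 with a fold enrichment of 4.99, the highest over Igf1r in either replicate, covered the start codon and reached upstream of the gene start in GENCODE M21. It overlapped 2 replicate 1 peaks that ended 597 and 58 bp before that start, chr7:67951990-67952230 with 2.52 and chr7:67952389-67952769 with 2.05, and its mean with the second was 3.52. RefSeq places the start of Igf1r at 67952257, inside the replicate 2 peak. By RefSeq, Igf1r had 18 exonic peaks in replicate 1, of which 17 were shared.

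Erbb4 (ENSMUSG00000062209.15, chr1:68032186-69108059, minus strand), a neuregulin receptor, followed with 11 exonic peaks in each replicate. Of those in replicate 1, 7 were shared, which is 0.57 per kb of exon, and 219 protein-coding genes had 7 or more. Its shared peaks sat at both ends of the coding sequence and over 4 internal exons. On transcript Erbb4-202, peaks of both replicates covered 100% of the 303 nt 5′ UTR, 17.6% of the 3879 nt CDS and 6.62% of the 7855 nt 3′ UTR, where Igf1r had 49.1% of its 3′ UTR covered. Of its 27 exons, 6 were reached in both replicates, 4 in replicate 1 only, 5 in replicate 2 only and 12 in neither.

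The peak over the first exon and start codon of Erbb4 had a fold enrichment of 5.08 in replicate 1 (chr1:69107557-69108522) and 3.39 in replicate 2 (chr1:69107593-69108119), and the replicate 1 peak reached 463 bp past the annotated gene start. At the other end, a replicate 1 peak with 2.58 covered the stop codon (chr1:68039706-68040465) and a further one with 2.65 lay 820 to 1241 nt after it (chr1:68038800-68039221). A single replicate 2 peak with 2.75 overlapped both and lay wholly in the 3′ UTR (chr1:68038957-68039960). The 2 replicates thus shared the early 3′ UTR of Erbb4, and the stop codon was covered in replicate 1 alone.

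Shared peaks over internal exons of Erbb4 gave values below 3 except for replicate 1 at exon 19. Exon 15 had 2.63 in replicate 1 and 2.95 in replicate 2, exon 20 had 2.70 and 2.04, and exon 26 had 2.01 and 1.77. Exon 19 had 9.60 in replicate 1 (chr1:68250403-68250622) and 2.72 in replicate 2 (chr1:68250420-68250824), a log2 ratio of 1.82. That replicate 1 peak was the highest over exons of the 10 receptors, yet 43 of its 220 bp, or 19.5%, were exonic and the rest lay in an intron. An unshared replicate 1 peak at exon 16 had 5.96 (chr1:68290244-68290460), a value that 18 peaks of that replicate had. Over the 7 shared peaks of Erbb4 the replicate 2 partner was higher in 3. These include both replicate 1 peaks paired with the single replicate 2 peak in the 3′ UTR.

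**Figure D2:**
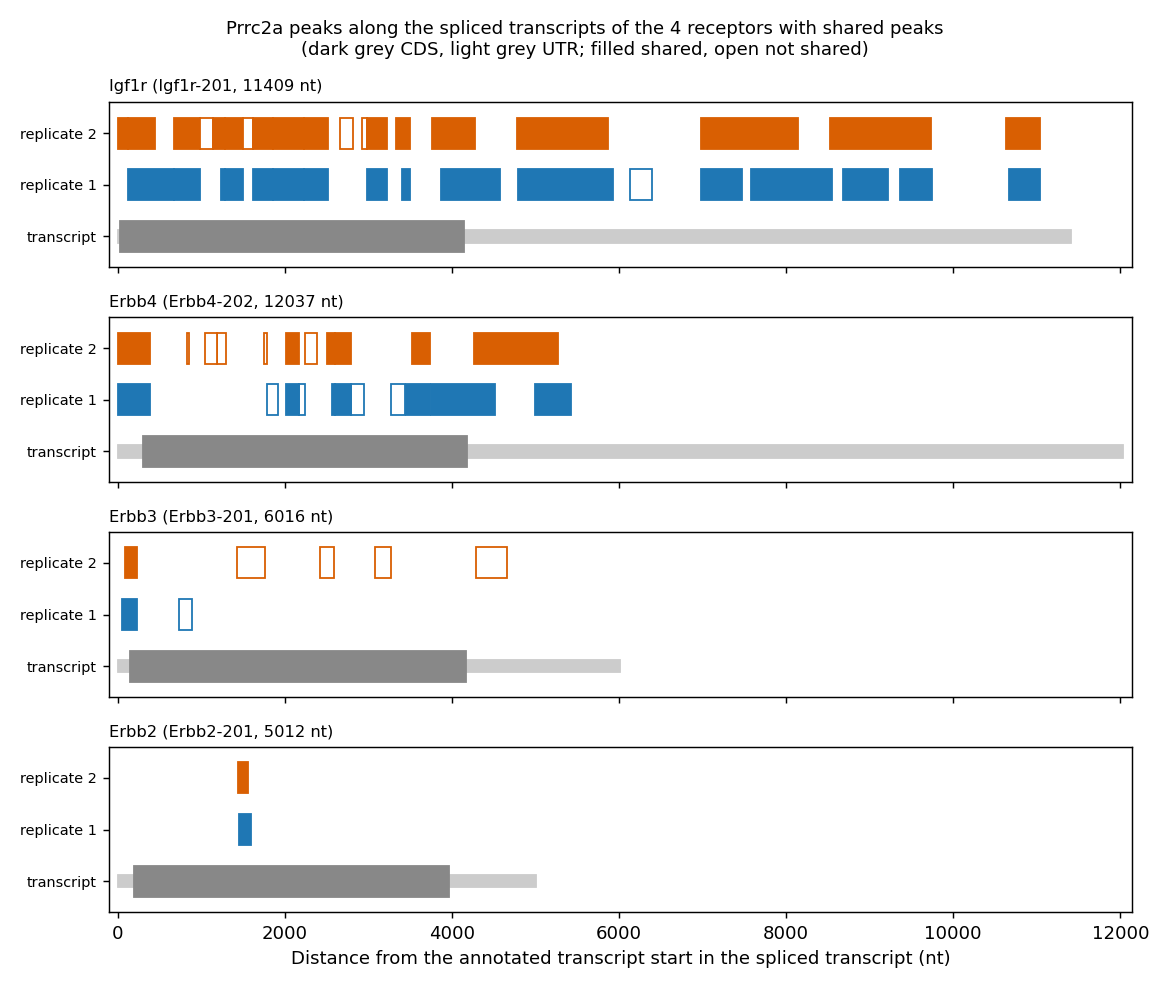
Peaks of each replicate are placed along the spliced transcript of Igf1r, Erbb4, Erbb3 and Erbb2, in nt from the annotated transcript start, over a bar with CDS in dark grey and UTRs in light grey. Filled boxes are peaks that overlap a peak of the other replicate (for the first Igf1r box of replicate 2, peaks just upstream of the annotated start) and open boxes are those that do not. Igf1r has peaks from its first to its last exon with gaps between them, and 5 of its 21 exons have none. Erbb4 has no peak over the later part of its 3′ UTR.

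Erbb3 (ENSMUSG00000018166.8, chr10:128567523-128589652, minus strand), the other neuregulin receptor, had 2 exonic peaks in replicate 1 and 5 in replicate 2. The shared one lay over the start codon, with a fold enrichment of 2.89 in replicate 1 (chr10:128589288-128589598) and 3.78 in replicate 2 (chr10:128589263-128589564). The second peak of replicate 1, with 2.87, covered exons 5 to 7. The 4 unshared peaks of replicate 2 were 4.51 over exons 12 and 13, 3.30 over exon 20, 3.28 over exon 25 and 2.95 in the 3′ UTR, 116 to 490 nt after the stop codon. Apart from the first exon, the replicates had no Erbb3 exon in common.

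Erbb2 (ENSMUSG00000062312.5, chr11:98412470-98437716, plus strand), the shared partner of the neuregulin receptors, had 1 exonic peak in each replicate, both over exons 11 and 12. The fold enrichment was 5.13 in replicate 1 (chr11:98427090-98427343) and 3.81 in replicate 2 (chr11:98427086-98427311). The 117 coding bases common to both are those printed above. Exactly the same value was given to 145 peaks of replicate 1 and to 30 peaks of replicate 2, so it places Erbb2 within a large tie and not at a level of its own.

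Egfr (ENSMUSG00000020122.16, chr11:16752203-16918158, plus strand) had 1 peak, in replicate 2, at chr11:16752260-16752584 over the start codon with a fold enrichment of 4.09. The nearest replicate 1 peak lay 2265771 bp away. With it, a peak over the first exon in at least 1 replicate was seen in 8 of the 10 receptors, where 10.8% of protein-coding genes had one. In both replicates it was seen in 2, Erbb3 and Erbb4, where 5.02% of genes had one. Neither background share was matched for exon length. The 8 include the Pdgfra peak described below, with 26 bp over the exon.

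Pdgfra (ENSMUSG00000029231.15, chr5:75152292-75198215, plus strand), the marker of oligodendrocyte precursors among the 10, had no peak in replicate 1 and 2 in replicate 2. The exonic one, chr5:75155708-75155924 with a fold enrichment of 5.31, had 26 of its 217 bp over an exon. It was intronic by RefSeq, and 58 peaks of replicate 2 had the same value. The other, chr5:75185691-75185931 with 2.45, was intronic. No peak touched the coding sequence of Pdgfra in either replicate.

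Pdgfrb (ENSMUSG00000024620.11, chromosome 18) had no peak in replicate 1 and 3 exonic peaks in replicate 2, with fold enrichments of 3.10 in the 5′ UTR, 3.41 over exons 5 and 6, and 2.69 in the 3′ UTR, 115 to 443 nt after the stop codon. None had a partner in replicate 1.

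The fibroblast growth factor receptors had 3 exonic peaks in all. Fgfr1 (ENSMUSG00000031565.18) had 1 in replicate 2, in the 5′ UTR with a fold enrichment of 1.90 (chr8:25518908-25519201). Fgfr2 (ENSMUSG00000030849.18) had 2 in replicate 1, 1.66 in the 3′ UTR (chr7:130162683-130163295) and 2.22 in the first exon (chr7:130265730-130266138). Fgfr3 (ENSMUSG00000054252.18), known from astrocytes and their precursors, had no peak over exons or introns in either replicate. No coding base of the 3 genes was covered in either replicate.

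Intronic peaks of the receptors came from the span of Fgfr2. Of 23 intronic peaks in replicate 1 and 31 in replicate 2, all but the 1 of Pdgfra lay within Fgfr2. GENCODE M21 gives Fgfr2 a span of 2.96 Mb through 1 of its 27 transcripts, Fgfr2-217, and without it the gene covers 103.8 kb. None of the 53 intronic peaks lay in the shorter span. Of them, 47 overlapped exons of other genes, among them Chst15 and Gpr26 with 15 each and Fam53b with 14. By RefSeq, Fgfr2 had no intronic peak.

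Across the receptors, the mean of the 2 replicates ranged from 1.89 to 6.16 over the 25 shared exonic peaks, with a median of 2.70. Of these peaks, 18 held coding bases, 9 held bases of the 3′ UTR, 2 held bases of the 5′ UTR and 14 also held intron bases. The replicate 2 value was higher in 17 of 25, some of which had the same replicate 2 partner. Counted by replicate 2 peaks the shared exonic peaks were 23, and with overlapping peaks merged they were 22.

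**Figure D3:**
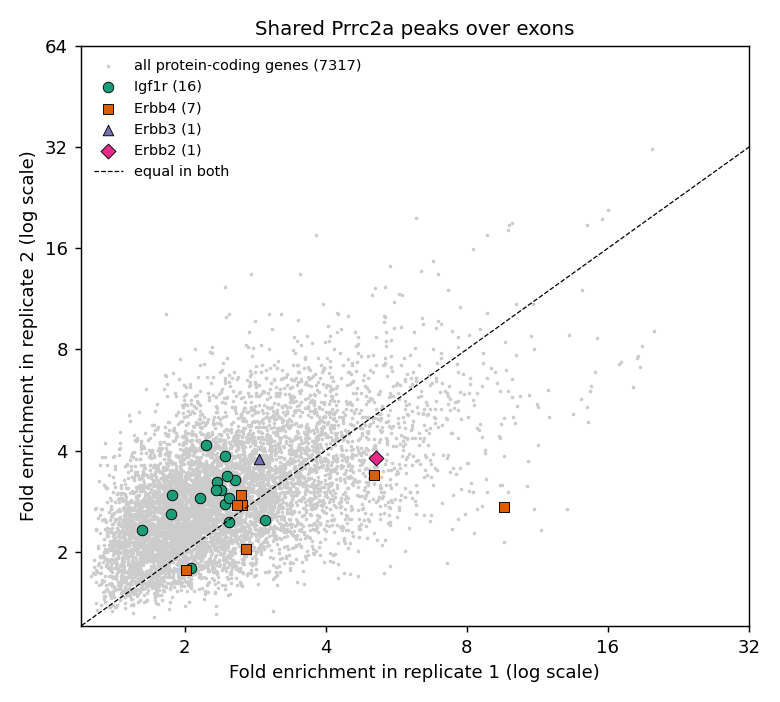
Each point is a shared exonic peak, placed by its fold enrichment in replicate 1 and in its replicate 2 partner, both on log scales, with the 7317 peaks of all protein-coding genes in grey and equality as a dashed line. Igf1r peaks lie mostly above the line, and the Erbb4 peak over exon 19 (9.60 and 2.72) lies farthest to the right among the receptors.

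The letters GGAC, looked for on the strand of the gene within exonic sequence under replicate 1 peaks, occurred in 20 of the 25 shared peaks, and GGACT, which is GGAC followed by T, in 11. For all 7317 shared exonic peaks of protein-coding genes the shares were 77.9% and 43.0%. For Igf1r, 13 of 16 peaks held GGAC, or 81.3%, and 72.0% of all windows of the same lengths along its transcript did. For Erbb4 these values were 5 of 7, or 71.4%, and 50.4%. Per kb, GGAC occurred 4.37 times in the bases of Igf1r covered in both replicates and 3.11 times in the rest of its transcript, and 3.99 and 2.85 times in Erbb4. Over whole transcripts of receptors with shared peaks, GGAC per kb was 6.38 in Erbb2, 5.15 in Erbb3, 3.77 in Igf1r and 2.99 in Erbb4. In the receptors without a shared peak it ran from 2.84 in Egfr to 8.14 in Pdgfrb, with 6.12 in Fgfr3. Whether motif content bears on having a peak was not tested. A match is a string of letters, and methylation of these sites was not measured in the lists used here.

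Shared exonic peaks were also counted over lists of genes around the receptors. The background shares are again 12.0% of all protein-coding genes and 27.3% of those with at least as much exon sequence as the shortest receptor. Of 48 other receptor tyrosine kinases, 16 had a shared exonic peak, or 33.3%. The highest mean fold enrichments were 6.13 for Ephb3, 4.95 for Ephb4, 4.86 for Met, 4.84 for Alk and 4.39 for Epha6. Ephb3, Ephb4 and Epha6 are ephrin receptors, and Met is the receptor of hepatocyte growth factor. Epha6 had 10 shared peaks at 1.89 per kb of exon, more per kb than Igf1r. Insr, the insulin receptor and a close relative of Igf1r, chosen after its values were seen, had 3 exonic peaks in replicate 1, all shared, and 13 in replicate 2, or 0.22 shared peaks per kb.

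Of 32 genes for ligands of the 10 receptors, 9 had a shared exonic peak, or 28.1% (backgrounds 12.0% and 27.3%). The highest means were 4.78 for the neuregulin Nrg1, 4.57 for Fgf10, 4.45 for Fgf5, 4.03 for Pdgfc and 3.20 for Pdgfb. Among the 4 neuregulin genes, Nrg1 had 4 shared peaks, Nrg3 had 3 and Nrg2 and Nrg4 had none. Among the 4 genes of platelet-derived growth factors, Pdgfc had 4, Pdgfb had 3, Pdgfa had 1 and Pdgfd had none. Igf1 and Igf2, the ligands of Igf1r, had no exonic peak in either replicate. These families were set out after their values were seen.

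Of 36 genes for adaptors and signalling enzymes inside the cell, 11 had a shared exonic peak, or 30.6% (backgrounds 12.0% and 27.3%). The highest means were 4.75 for Irs1, the docking protein of the insulin and insulin-like growth factor receptors, 3.32 for the adaptor Shc3, 2.73 for the Ras activator Sos1, 2.59 for Nck2 and 2.30 for Pik3r1, a regulatory subunit of phosphoinositide 3-kinase.

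Of 15 genes for inhibitors of receptor signalling found in the annotation, 10 had a shared exonic peak, or 66.7% (backgrounds 12.0% and 27.3%). The highest means were 4.10 for Spry4, 3.28 for Cbl, 2.59 for Lrig2, 2.50 for Spry2 and 2.40 for Spry1. Sprouty proteins dampen signalling through Ras, Cbl is a ubiquitin ligase that sends active receptors to degradation, and Lrig2 belongs to a family of membrane proteins that act on receptor levels. The lists differ in exon length, with medians of 6.02 kb for other receptors, 4.14 kb for ligands, 5.54 kb for adaptors and 5.59 kb for inhibitors, and whether length accounts for their shares was not tested. Of 24 marker genes of brain cell types, 2 had a shared exonic peak, where 12.0% of all protein-coding genes had one. They were Map1b, among 6 neuron markers, and Olig2, among 4 markers of oligodendrocyte precursors, with mean fold enrichments of 4.13 and 1.72. The other markers of both types, and those of astrocytes, oligodendrocytes, microglia, endothelium and pericytes, had none.

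**Figure D4:**
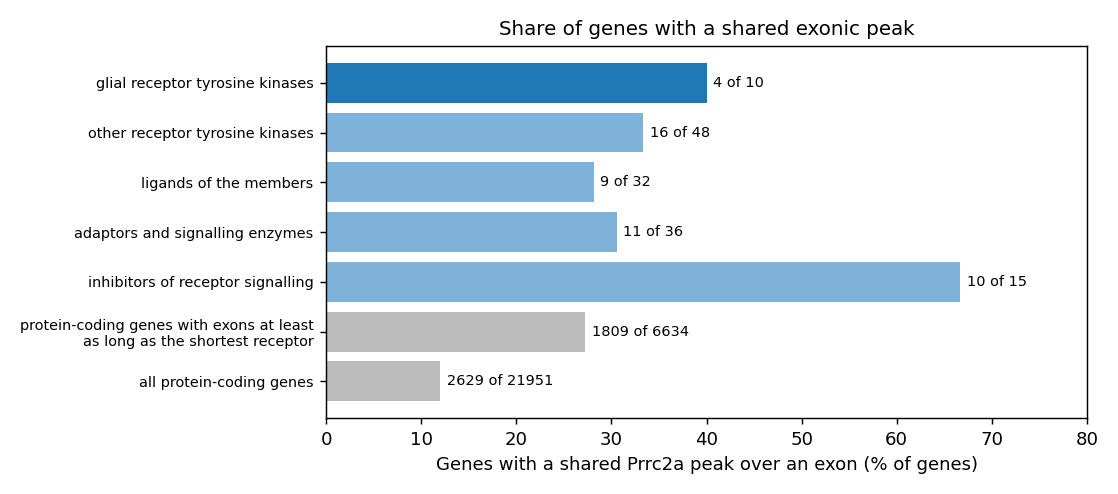
Bars give the share of genes with a shared peak over an exon, in percent, for the 10 receptors, 4 lists of related genes and the 2 backgrounds in grey, with counts at the bar ends. The shares run from 28.1% of the ligands to 66.7% of the inhibitors. The backgrounds are 27.3% of genes with at least as much exon sequence as the shortest receptor and 12.0% of all protein-coding genes. No test was run.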

How the data were processed

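Prrc2a RIP-seq peak lists of 2 replicates of 1 condition were used. According to the methods, the authors trimmed reads, aligned them to mm10, kept uniquely mapped reads of mapping quality 20 or more, and called peaks per replicate without a fragment model at an FDR of 0.05. The submitters' processing notes name TopHat2 2.0.9 and MACS2 2.0.10, and the methods name other versions of both. The deposited values are peak positions and a fold enrichment, a linear ratio. Read depth and strand are not in the lists, and the control library of the call is not given in the sources used here, so no interval could be given.

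Peaks were overlapped with GENCODE M21, and with RefSeq as an alternative. Transcript positions refer to 1 transcript per gene, the longest spliced one tagged CCDS or APPRIS principal. Sequences were read from GRCm38 with pysam 0.24.0 under Python 3.11.15, with pandas 2.3.3 and matplotlib 3.10.9. The overlap code was tested on simulated data. All shared peaks of the receptors entered the counts, and at least the peak with the highest mean of each was named. From each related list with more than 8 genes with a shared peak the 5 highest by mean fold enrichment were named. The receptors and lists were chosen with earlier results of these data known, so their shares support nothing by themselves.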

Additional observations from a re-analysis of the deposited data

How the results depend on the processing

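With a fold enrichment of at least 4 asked of both peaks, 0 of the 10 receptors and 0 of their 25 shared exonic peaks remained, and 5 of 46 related genes did. At that value the exonic peaks fell to 4 in replicate 1 and 5 in replicate 2, and the intronic ones to 2 and 9. By RefSeq, an alternative chosen after seeing the data for these counts, intronic peaks were 0 in replicate 1 and 2 in replicate 2, because the long Fgfr2 transcript is not in it. GGACT occurred in 11 shared peaks and GGAC in 20. Leaving out a replicate, so that no partner was asked for, gave 5 to 8 receptors, 33 to 42 exonic peaks, 54 to 65 related genes and median fold enrichments of 2.44 to 2.95 over those exonic peaks. Without replicate 1 the receptors were 8 in place of 4 and the exonic peaks 42 in place of 25. Of 38 alternatives, 26 stayed within 1.5 times the count or within the spread, 12 moved and 0 reversed. An overlap of 50% of both peaks left 4 receptors with 18 peaks. No paired analysis was possible because there was 1 group. Depth is unknown, so a receptor without a peak was not detected at this depth and is not shown to be unbound.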
